A study of Mus musculus with 28 samples.

Results

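The 9 genes described here are the keratins that mark the 2 epithelial layers of the mammary duct, 5 of the luminal layer (Krt7, Krt8, Krt18, Krt19 and Krt23) and 4 of the basal layer (Krt5, Krt14, Krt15 and Krt17). They were found by matching Ensembl gene identifiers, with the version dropped, to mouse symbols, and are 9 of the 50600 genes in the count table. All 9 were counted in at least some libraries. The libraries came from 7 adult female C57BL/6 mice carrying a Pdgfra-driven Cre transgene and the R26mTmG reporter, in which cells that have expressed Cre, and all their descendants, carry membrane GFP and every other cell keeps membrane tdTomato. The Cre was constitutive, so the label records past as well as present expression of the Pdgfra promoter. Of the 7 mice, 4 were untreated and 3 had received estrogen plus progesterone (E+P). From each mouse 4 fractions were sorted after depletion of blood and endothelial cells: GFP+ and tdTomato+ luminal epithelium (CD49f low, EpCAM+), and GFP+ and tdTomato+ stroma (CD49f-, EpCAM-), which gave 28 libraries in 8 groups. The basal epithelial gate was not among these fractions, so basal keratins were read here only in luminal and stromal sorts.

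Keratins are the intermediate filament proteins of epithelia. Each filament is built from obligate pairs of 1 acidic type I chain (here Krt14, Krt15, Krt17, Krt18, Krt19 and Krt23) and 1 basic type II chain (here Krt5, Krt7 and Krt8), and the filaments are anchored at desmosomes between cells and at hemidesmosomes on the basement membrane. In the mammary gland Krt8 and Krt18, with Krt19 and Krt7, are the classical markers of luminal cells, whereas Krt5 and Krt14 are those of the basal, myoepithelial layer. Krt15 and Krt17 are basal keratins of stratified epithelia, and Krt23 is an acidic keratin of glandular epithelia.

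Library totals ranged from 8623383 to 24583803 counts, so that 3 counts corresponded to between 0.122 and 0.348 CPM (read counts relative to library size, which was scaled by TMM throughout). The 10 luminal epithelial markers summed to between 2783 and 3778 CPM in every luminal library and to between 1.378 and 190.5 CPM in the stromal ones. The fibroblast markers summed to at least 30470 CPM in GFP+ stroma. In tdTomato+ stroma they summed to between 1760 and 6408 CPM. Beside them stood 2896 to 4746 CPM of pericyte and 1880 to 16710 CPM of skeletal muscle markers. These sums are of different genes and do not give shares of cells. The smooth muscle genes Acta2 and Myh11, which basal cells share with vascular smooth muscle, reached 650 and 3050 CPM in untreated tdTomato+ stroma. In bulk libraries such as these, fewer cells of a type and less RNA per cell cannot be told apart.

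The type II members Krt5, Krt7 and Krt8 and the type I member Krt18 lie in 1 cluster on chromosome 15, and the other type I members lie on chromosome 11. Krt7 (ENSMUSG00000023039.16) spans chr15:101411043-101430313 on the forward strand, Krt8 (ENSMUSG00000049382.9) spans chr15:101996698-102004482 on the reverse strand and Krt18 (ENSMUSG00000023043.6) spans chr15:102028180-102032027 on the forward strand. Krt19 (ENSMUSG00000020911.14) lies at chr11:100140810-100148665 and Krt23 (ENSMUSG00000006777.7) at chr11:99477974-99493137, both on the reverse strand. Of the basal members, Krt5 (ENSMUSG00000061527.6) lies at chr15:101707070-101712898, Krt14 (ENSMUSG00000045545.8) at chr11:100203162-100207548, Krt15 (ENSMUSG00000054146.8) at chr11:100131758-100135928 and Krt17 (ENSMUSG00000035557.9) at chr11:100256217-100261029, all on the reverse strand. These coordinates are those of GENCODE M21 on GRCm38.

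The bases upstream of 3 members are shown because these genes behaved differently from each other in the luminal cells. Krt7 was lower and Krt23 higher in the GFP+ subset. Per length of transcript Krt18 was the most abundant of the 9 members in both subsets. By CPM alone, tdTomato+ cells held more Krt8 than Krt18 after E+P (2114 against 1900 CPM). RefSeq windows of GRCm38.p6 were found for 6 of the 9 members (not for Krt15, Krt17 and Krt19) and were ended 1 base before the annotated exon at that start site. Other annotated transcripts of Krt7 begin further upstream and run through its window. They are chr15:101412153-101412401 (forward strand) for Krt7, chr11:99493138-99493370 (reverse strand) for Krt23 and chr15:102027966-102028179 (forward strand) for Krt18, and are written 5′ to 3′ with matches to the GC box in capitals.
Krt7: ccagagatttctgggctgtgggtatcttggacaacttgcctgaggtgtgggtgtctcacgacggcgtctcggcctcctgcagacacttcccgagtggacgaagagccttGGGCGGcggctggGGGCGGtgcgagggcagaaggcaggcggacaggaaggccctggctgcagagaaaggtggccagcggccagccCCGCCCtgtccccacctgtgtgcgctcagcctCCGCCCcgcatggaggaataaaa
Krt23: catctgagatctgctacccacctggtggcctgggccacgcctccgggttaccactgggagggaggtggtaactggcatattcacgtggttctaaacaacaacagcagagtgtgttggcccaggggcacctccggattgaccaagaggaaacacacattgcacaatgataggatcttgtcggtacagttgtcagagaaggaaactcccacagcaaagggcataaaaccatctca
Krt18: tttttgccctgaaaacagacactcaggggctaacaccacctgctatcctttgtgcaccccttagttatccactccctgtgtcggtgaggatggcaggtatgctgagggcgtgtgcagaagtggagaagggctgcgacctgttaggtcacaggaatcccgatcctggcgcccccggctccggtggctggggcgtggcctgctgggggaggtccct
The GC box was searched as GGGCGG on both strands. The TATA box was searched likewise as TATAAA. An AP-1 site was searched as TGAGTCA, and the CCAAT box by the letters of its name. Krt7 held 4 GC boxes, and Krt23 and Krt18 held none of the 4 motifs in these windows. The Krt7 boxes were counted back from the end of its 250 bases, which take in 1 base of that exon. By that count 2 lay between 141 and 123 bases and 2 between 56 and 19 bases. Among all 32851 promoters of 250 upstream bases, 32.7% held a GC box, 12.4% a TATA box, 4.46% an AP-1 site and 33.8% a CCAAT box. The GC content was 65.9% for Krt7, 60.7% for Krt18 and 52.8% for Krt23, against a median of 52.4% over all promoters.

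Krt18, Krt8 and Krt19 made up nearly all keratin RNA of the luminal cells. Compared per length (CPM per kb of the principal transcript), untreated tdTomato+ luminal cells held Krt18 at 1568 ± 114, Krt8 at 955 ± 69.6, Krt19 at 863 ± 54.4 and Krt7 at 174 ± 7.35 (SD, n = 4). In this order the levels of Krt8 and Krt19 lay within 2 SD of each other and the other neighbours did not. The 5 other members were far lower, at 3.61 ± 1.00 for Krt15, 3.16 ± 1.95 for Krt23, 1.65 ± 0.744 for Krt17, 1.16 ± 0.873 for Krt14 and 0.214 ± 0.0625 for Krt5. Among these, Krt15 exceeded Krt17, Krt14 and Krt5 in every library and overlapped Krt23, while Krt17 and Krt14 overlapped each other and Krt5 overlapped Krt14 only. The untreated GFP+ luminal cells had the same leading pair, with Krt18 at 1439 ± 124.3 and Krt8 at 852 ± 158 CPM per kb, followed by Krt19 at 448 ± 150, Krt7 at 94.6 ± 18.5 and Krt23 at 13.8 ± 3.22 (SD, n = 4).

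**Figure D1:**
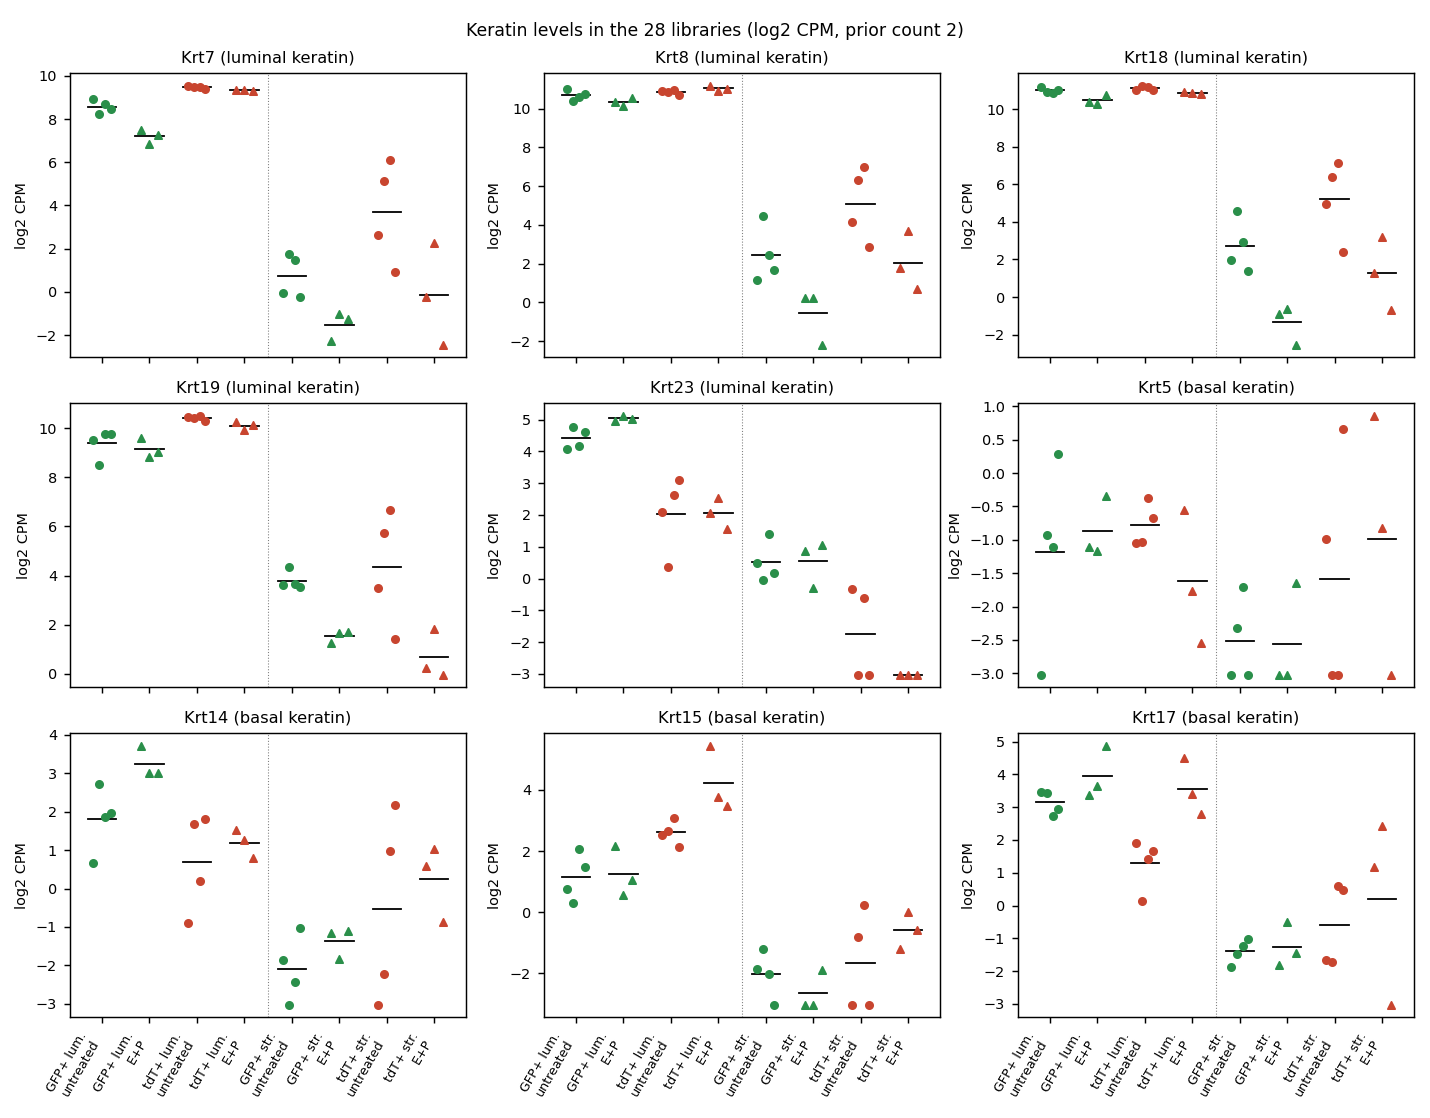
Level of each keratin in each library, as log2 CPM with a prior count of 2, by sorted fraction and treatment (lum., luminal; str., stromal; tdT+, tdTomato+; circles, untreated mice; triangles, E+P mice; bars, group means; each panel has its own scale). The luminal keratins Krt7, Krt8, Krt18 and Krt19 lie far above the stromal libraries in every luminal library, and Krt23 separates GFP+ from tdTomato+ luminal cells. In stroma the lowest GFP+ library for Krt23 (-0.305) is barely above the highest tdTomato+ library (-0.343).

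The luminal keratins were all far lower in stroma than in luminal epithelium. Krt18 fell by 8.48 ± 0.55 on the log2 scale (edgeR, SE, adjusted p = 3.48e-12), Krt8 fell by 8.01 ± 0.53 (adjusted p = 5.38e-12), Krt7 fell by 7.46 ± 0.52 and Krt19 fell by 6.89 ± 0.43. Krt23, at -5.36 ± 0.39, and the basal members Krt15 (-4.58 ± 0.43), Krt17 (-3.69 ± 0.42) and Krt14 (-2.74 ± 0.48) were lower in stroma by less. Krt5, the partner of Krt14 in basal filaments, was near the floor in both lineages and its difference of -0.90 ± 0.68 did not pass the test (adjusted p = 0.244). In all, 8 of the 9 members were lower in stroma, where 30.5% of the 19569 genes tested were lower and 63.5% differed in either direction. For each mouse the mean log2 CPM of both stromal libraries was also set against that of both luminal libraries. On this mean every member other than Krt5 was lower in stroma in each of the 7 mice, and Krt5 was lower in 6 of 7. Single fractions could differ. In untreated mouse 4 Krt14 was at 4.37 CPM in tdTomato+ stroma, against 3.77 and 3.37 CPM in GFP+ and tdTomato+ luminal cells. With library size alone as the scaling, the median of all genes moved by -0.29 and the share of called genes that were higher went from 51.9% to 38.8%.

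The GFP+ and tdTomato+ luminal cells differed in 6 of the 9 keratins, where 34.7% of the 16538 genes tested differed, and they differed in both directions. DESeq2 called 8 and limma-voom 7 of the 9. Lower in GFP+ cells were 3 luminal keratins and Krt15, against 19.0% of all genes. Higher in GFP+ cells were Krt23 and Krt14, against 15.7% of all genes. The median over the 5 luminal members was -0.45 and that over the 4 basal members 0.73 on the log2 scale, against 0.00149 over all genes tested. The markers of the luminal subtypes moved with this contrast: all 7 luminal progenitor markers were higher in GFP+ cells (Kit, 906 and 679 CPM in untreated and E+P GFP+ cells against 185 and 69.9 in tdTomato+ cells), and 7 of 8 hormone-sensing markers were lower (Prlr, 611 and 126 against 2942 and 1422 CPM). What part the mix of luminal subtypes had in the keratin differences was not tested. With library size alone as the scaling, the median of all genes moved by 0.14 and the share of called genes that were higher went from 45.3% to 60.8%.

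Krt7, a type II keratin of simple ductal epithelia, was lower in the GFP+ subset of every mouse. Untreated GFP+ luminal cells held 481, 306, 411 and 350 CPM of Krt7 in the 4 mice, against 736, 722, 719 and 667 CPM in their tdTomato+ cells. After E+P the 3 GFP+ libraries held 183, 115 and 153 CPM and the 3 tdTomato+ libraries 654, 640 and 635 CPM. No GFP+ library reached the lowest tdTomato+ library. The GFP+ subset was lower by a log2 fold change of -1.52 ± 0.11 (edgeR, adjusted p = 7.84e-07), and lower in 7 of 7 mice (exact sign-flip permutation test, two-sided, p = 0.0156, the lowest attainable with 7 mice, and 0.079 adjusted over the 81 exact tests run on the members). Its upstream window is the one with 4 GC boxes shown above.

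Krt19, an acidic keratin that lacks most of the tail domain, followed the same direction. The 4 untreated GFP+ libraries held 726, 364, 871 and 862 CPM and the tdTomato+ ones 1405, 1350, 1440 and 1244 CPM. After E+P the levels were 782, 458 and 522 CPM in GFP+ and 1234, 973 and 1121 CPM in tdTomato+ cells. All GFP+ libraries lay below all tdTomato+ libraries, with a log2 fold change of -0.96 ± 0.18 (edgeR, adjusted p = 7.20e-04). The main luminal pair differed less. Without treatment Krt8 was at 1669 ± 310 CPM in the GFP+ and 1869 ± 136 CPM in the tdTomato+ subset (SD, n = 4), and it was at 1316 ± 174 and 2114 ± 166.2 CPM after E+P (SD, n = 3). Over both treatments its log2 fold change was -0.45 ± 0.10 (edgeR, adjusted p = 0.00167). It was lower in 5 of 7 mice (exact sign-flip permutation test, p = 0.0625), and untreated mice 1 and 4 had more Krt8 in GFP+ cells (2070 against 1938 and 1717 against 1691 CPM). The call for Krt8 ended without E+P mouse 1 (-0.38, adjusted p = 0.019), without E+P mouse 2 (-0.41, adjusted p = 0.0118) and with library size alone (-0.31, adjusted p = 0.0325). Krt18, its type I partner, had a log2 fold change of -0.29 ± 0.08 that did not pass the threshold of 0.01 (adjusted p = 0.0121) and passed without E+P mouse 3 (-0.35, adjusted p = 0.00368), with no filter on low counts (0.00303), with DESeq2 (0.0083) and with limma-voom (0.00642).

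Krt23 went the other way. It stood at 16.6, 27.1, 18.0 and 24.4 CPM in untreated GFP+ luminal cells and at 4.18, 1.16, 6.07 and 8.38 CPM in untreated tdTomato+ cells. After E+P the GFP+ libraries held 31.3, 34.4 and 32.4 CPM and the tdTomato+ libraries 4.09, 5.64 and 2.85 CPM. The lowest GFP+ library was above the highest tdTomato+ library. The log2 fold change was 2.51 ± 0.32 (edgeR, adjusted p = 4.84e-05), and Krt23 was higher in GFP+ cells of 7 of 7 mice. Even so, Krt23 made up only 0.496% ± 0.171 of the summed CPM per kb of the 9 keratins in untreated GFP+ cells, beside 0.0902% ± 0.0591 in untreated tdTomato+ cells (SD, n = 4).

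The basal keratins were low in the luminal sort and did not move as a group. Krt15 was lower in GFP+ cells, with 1.58, 1.11, 4.06 and 2.67 CPM in the untreated mice against 5.68, 6.21, 8.38 and 4.30 CPM in tdTomato+ cells, and a log2 fold change of -2.28 ± 0.40 over both treatments (edgeR, adjusted p = 4.91e-04). It was lower in 7 of 7 mice. Krt14, the type I partner of Krt5 and the textbook basal marker, was higher in GFP+ cells: 1.46, 6.44, 3.48 and 3.77 CPM in the untreated mice against 0.413, 3.10, 1.01 and 3.37 CPM. The log2 fold change of Krt14 was 1.49 ± 0.42 (edgeR, adjusted p = 0.00943), higher in GFP+ cells of 7 of 7 mice though the untreated libraries of both subsets overlapped. Leaving out any 1 of 5 mice took Krt14 above the threshold, E+P mice 1 (adjusted p = 0.0322), 2 (0.0331) and 3 (0.037) and untreated mice 2 (0.0155) and 3 (0.0259), and so did dropping the filter on low counts (1.48, adjusted p = 0.0247). Krt17, at 8.92 ± 2.19 CPM without treatment in the GFP+ subset and 2.56 ± 1.15 CPM in the tdTomato+ subset (SD, n = 4), did not pass over both treatments (1.06 ± 0.35, adjusted p = 0.0228), and passed without E+P mouse 1 (1.53, adjusted p = 0.00262) and with DESeq2 (1.07, adjusted p = 0.00377). Krt5 had at most 16 counts in any luminal library and was not called (0.40 ± 0.64, adjusted p = 0.633).

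Basal cells in the luminal sort would carry the other genes of their layer too, and these were read beside the keratins. The 10 basal and myoepithelial markers summed to between 193.3 and 253.2 CPM in untreated GFP+ luminal libraries and to between 165.7 and 265.7 CPM in untreated tdTomato+ ones, and all 10 were detected in each group. After E+P the sums were between 225.8 and 315.9 CPM in GFP+ and between 725.8 and 985.5 CPM in tdTomato+ luminal libraries, lower in the subset where Krt14 was higher. Trp63, the transcription factor of basal cells, stood at 2.67 and 1.15 CPM untreated and at 7.22 and 22.2 CPM after E+P in GFP+ and tdTomato+ cells. Untreated, the contractile genes Acta2 and Myh11 stood at 15.96 and 5.60 CPM in GFP+ and at 4.06 and 7.91 CPM in tdTomato+ cells. Of the 10 markers, 2 were higher and 2 lower in GFP+ cells, where 15.7% of all genes were higher and 19.0% lower. The markers called included Oxtr (3.06 on the log2 scale), Acta2 (1.68) and Cdh3 (-2.57). Trp63, Oxtr, Cdh3 and, in the comparison of E+P with untreated cells, Lamb3 are outside the rule for naming and were named with their values known. The part of basal cells in the difference of Krt14 was not tested.

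**Figure D2:**
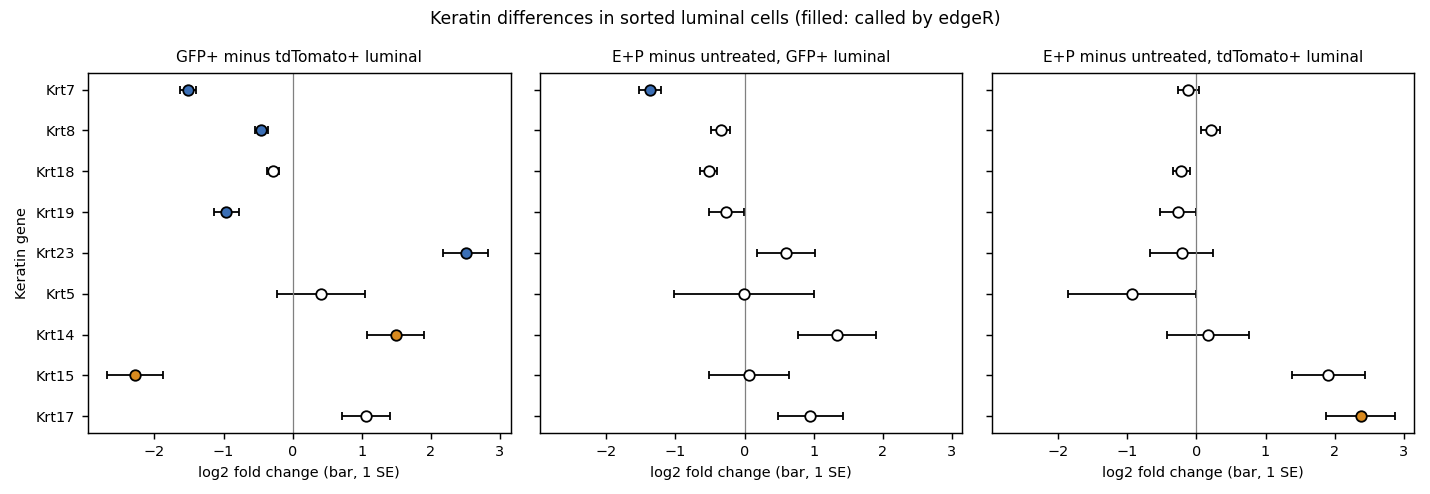
Log2 fold change of each keratin with its standard error in 3 luminal comparisons from the same fit of 14 libraries: GFP+ minus tdTomato+ over both treatments, and E+P minus untreated within each subset (filled, adjusted p under 0.01; blue, luminal members; orange, basal members; open, not called). Krt7 is the member that falls with E+P in GFP+ cells, at -1.37, and Krt17 the one that rises in tdTomato+ cells, at 2.38.

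Krt7 fell with E+P in the GFP+ luminal cells. The 4 untreated libraries held between 306 and 481 CPM and the 3 E+P libraries between 115 and 183 CPM, with no overlap, a log2 fold change of -1.37 ± 0.16 (edgeR, adjusted p = 3.41e-04). Krt7 was the only 1 of the 9 members called in this comparison, where 5.96% of all genes were called and 2.78% fell. In the tdTomato+ luminal cells Krt7 stood at 711 ± 30.1 CPM untreated (SD, n = 4) and 643 ± 9.78 CPM after E+P (SD, n = 3), a log2 fold change of -0.12 ± 0.15 that was not called (adjusted p = 0.608). The 2 responses differed from each other by -1.25 ± 0.22 on the log2 scale in the interaction test of edgeR (adjusted p = 0.00434). Krt7 was the only member called in that test, in which 2.27% of all genes were called and 1.49% were on the lower side. The interaction call ended when 1 of 5 mice was left out: E+P mouse 2 (-1.07, adjusted p = 0.0351) or 3 (-1.25, 0.0394), or untreated mouse 1 (-1.16, 0.015), 3 (-1.22, 0.0169) or 4 (-1.26, 0.0102). It also ended with library size alone (-1.14, adjusted p = 0.0126), which moved the median of all genes in this test by 0.12 and the share of called genes on the higher side from 34.6% to 55.2%. Both comparisons of E+P with untreated GFP+ cells and the interaction rest on the same 7 GFP+ libraries.

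The other luminal keratins were not called with E+P in GFP+ cells. Krt18 stood at 2313, 1985, 1900 and 2074 CPM in the untreated and at 1324, 1249 and 1757 CPM in the E+P libraries, which did not overlap. Its log2 fold change of -0.52 ± 0.12 lay just outside the threshold (edgeR, adjusted p = 0.011) and passed without E+P mouse 3 (-0.66, adjusted p = 0.00593). Krt8 (-0.34 ± 0.14, adjusted p = 0.114), Krt19 (-0.27 ± 0.25, adjusted p = 0.528) and Krt23 (0.60 ± 0.42, adjusted p = 0.369) did not pass. Of the basal members Krt14 was at 12.9, 7.86 and 7.87 CPM after E+P, above all 4 untreated libraries, but its log2 fold change of 1.34 ± 0.56 did not pass (adjusted p = 0.128). Krt17 (0.95 ± 0.47), Krt15 (0.06 ± 0.58) and Krt5 (-0.00482 ± 1.01) were not called. Among the 8 hormone-sensing markers 3 fell in the same libraries and none rose, and the list summed to between 281.9 and 1868 CPM in untreated and between 178 and 337 CPM in E+P GFP+ cells. Of the 7 luminal progenitor markers none was called, but their sum went from between 2506 and 4310 CPM to between 1717 and 1868 CPM, without overlap (median log2 fold change -0.997). Whether these shifts in markers bear on Krt7 was not tested. With library size alone the share of called genes that were higher went from 53.3% to 36%.

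In the tdTomato+ luminal cells the keratin that rose with E+P was Krt17. Its untreated libraries held 3.67, 0.973, 2.53 and 3.06 CPM and its E+P libraries 22.4, 10.51 and 6.80 CPM, without overlap and with a wide spread among the treated mice. The log2 fold change was 2.38 ± 0.50 (edgeR, adjusted p = 0.00396), 1 member of 9 where 14.1% of all genes were called and 7.63% rose. The call for Krt17 ended when 1 of 5 mice was left out, E+P mouse 1 (1.75, adjusted p = 0.0174) or 2 (2.504, 0.0125) or untreated mouse 2 (2.11, 0.0109), 3 (2.36, 0.0153) or 4 (2.47, 0.0137). It ended also with no filter on low counts (2.36, adjusted p = 0.0148), with limma-voom (2.18, 0.0137) and when only the 2 tdTomato+ groups were fitted (2.37, 0.0118). Krt15 went the same way, from 5.68, 6.21, 8.38 and 4.30 CPM untreated to 43.0, 13.5 and 10.9 CPM after E+P, but its change missed the threshold (1.91 ± 0.53, adjusted p = 0.0177). E+P mouse 1 had the highest level of both. Neither response was shown to differ between the subsets: the interaction was -1.42 ± 0.69 for Krt17 (adjusted p = 0.25) and -1.84 ± 0.79 for Krt15 (adjusted p = 0.192).

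Other genes of the basal layer rose in the same tdTomato+ E+P libraries. Among the 16538 genes tested in this comparison, 1262 (7.63%) rose and 1065 fell. Of the 10 basal and myoepithelial markers 4 rose and none fell, and their sum went from between 165.7 and 265.7 CPM to between 725.8 and 985.5 CPM. Among those that rose were the laminin chain Lamb3 (21.7 to 35.8 CPM), Trp63 (1.15 to 22.2 CPM) and P-cadherin, Cdh3 (1.77 to 52.2 CPM). Of 8 epidermal keratinocyte markers 5 were tested and 1 rose, Lor, from 0 to 1.83 CPM (adjusted p = 0.00262), and the list summed to between 17.06 and 28.63 CPM after E+P and between 10.46 and 16.26 CPM untreated. Among the luminal lists 4 of 7 progenitor markers fell and none rose, of the 8 hormone-sensing markers 1 rose and 1 fell, and of the 10 luminal epithelial markers 4 rose and none fell. The contractile markers did not go with them, since Acta2 stood at 4.06 CPM untreated and 1.56 CPM after E+P and Myh11 at 7.91 and 2.02 CPM, and neither was called. Krt5 was at 0.361, 0.365, 0.651 and 0.504 CPM untreated and at 0.561, 0.171 and 0.0476 CPM after E+P (-0.93 ± 0.93, adjusted p = 0.492), and Krt14 was at 1.98 ± 1.48 CPM (SD, n = 4) and 2.20 ± 0.556 CPM (SD, n = 3). The part of basal or epidermal cells in the change of Krt17 was not tested.

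The balance of the luminal pair differed between treated and untreated tdTomato+ cells. Per length, the ratio of Krt8 to Krt18 was between 0.558 and 0.674 in the 4 untreated and between 0.753 and 0.853 in the 3 E+P tdTomato+ luminal libraries, without overlap. In GFP+ luminal cells it was between 0.493 and 0.657 untreated and between 0.624 and 0.726 after E+P, with overlap. The ratio of all type II to all type I members showed the same, 0.463 ± 0.0238 (SD, n = 4) against 0.603 ± 0.0137 (SD, n = 3) in tdTomato+ and 0.493 ± 0.0464 against 0.501 ± 0.0115 in GFP+ cells. A ratio within a library does not depend on how libraries are scaled. Taken alone, Krt8 in tdTomato+ cells was 0.21 ± 0.14 higher after E+P and Krt18 0.22 ± 0.12 lower on the log2 scale, and neither was called (adjusted p = 0.292 and 0.197). The direction for Krt8 flipped with library size alone (-0.02), which moved the median of all genes by -0.22 and the share of called genes that were higher from 54.2% to 25.2%. Of the 1884 distinct 75-base stretches of Krt8, 23.5% also occur in other genes, most of them in the pseudogene Krt8-ps, so that part of its reads may have been assigned elsewhere. Krt8-ps was counted at 1.45% of Krt8 in untreated and 2.53% in E+P tdTomato+ luminal cells.

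**Figure D3:**
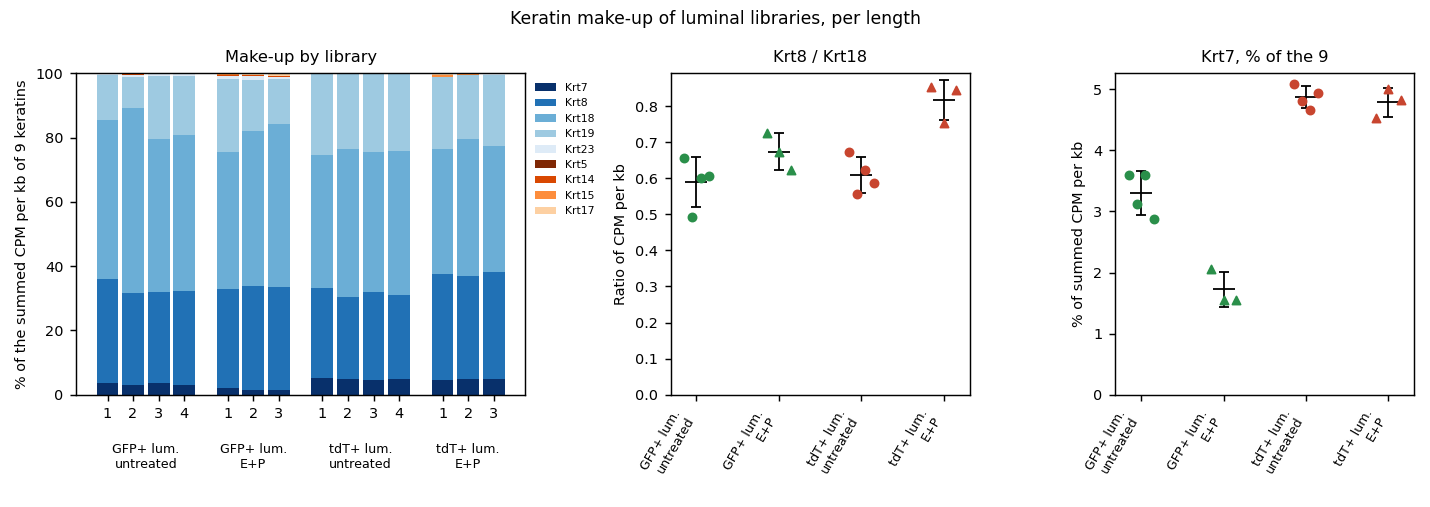
Make-up of the keratin RNA in the 14 luminal libraries, in CPM per kb of the principal transcript (lum., luminal; tdT+, tdTomato+). Left, the share of each of the 9 keratins in each library, numbered by mouse within a group; middle, the ratio of Krt8 to Krt18; right, the share of Krt7 (points, libraries; bars, mean and SD). The share of Krt7 lies between 2.87% and 3.60% in untreated and between 1.55% and 2.06% in E+P GFP+ cells, and the Krt8 to Krt18 ratio is highest in the tdTomato+ cells of E+P mice.

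Keratins in the sorted stroma were read against the epithelial markers of the same libraries. In untreated tdTomato+ stroma Krt18 stood at 30.7, 85.4, 139 and 5.15 CPM, and Krt8 at 17.9, 80.2, 127 and 7.19 CPM, with mice 2 and 3 high for both. Expressed as a share of the mean of the 2 luminal libraries of the same mouse, Krt18 was between 0.246% and 6.53% and the summed luminal epithelial markers between 0.355% and 6.59%, and the same 2 mice were high. In untreated GFP+ stroma Krt18 was at 3.78, 23.8, 7.62 and 2.48 CPM and Krt8 at 2.12, 21.5, 5.30 and 3.12 CPM, with mouse 2 high. There Krt8 was between 0.106% and 1.36% and the summed markers between 0.169% and 1.53% of the luminal level. The part that luminal cells in the stromal sort had in these keratin counts was not tested.

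In GFP+ stroma Krt23 and Krt19 exceeded the share of the summed luminal epithelial markers of their own mouse. Over all 7 mice that summed share ran from 0.0389% to 1.53%, and Krt19 lay within this range in 6 of 7. Krt23 was at 1.29, 0.852, 2.499 and 1.01 CPM in the 4 untreated and at 1.70, 0.686 and 1.97 CPM in the 3 E+P libraries of GFP+ stroma, from 11 to 41 counts each. These levels were between 3.43% and 20.8% of those of the luminal cells of the same mice. The median over the 7 mice was 9.64% for Krt23 and 1.09% for Krt19, whereas the medians of the 10 luminal epithelial markers ran from 0% to 0.237% and those of Krt7, Krt8 and Krt18 from 0.106% to 0.137%. Krt23 exceeded the share of the summed markers in 7 of 7 mice, by 9.60 percentage points on average, and Krt19 in 7 of 7 mice by 0.617 points (exact sign-flip permutation tests, two-sided, p = 0.0156 for each, the lowest attainable with 7 mice, and 0.078 adjusted over the 10 such tests, which were added with the values known). Only the 5 luminal members were tested in this way. The luminal mean for Krt23 takes in tdTomato+ luminal cells, which held less of it than GFP+ ones. Of the basal members Krt14, Krt17, Krt15 and Krt5 had medians of 4.15%, 3.99%, 1.96% and 0%, from at most 11 counts in a GFP+ stromal library. In tdTomato+ stroma the medians were higher, at 180% for Krt5, 17.6% for Krt14, 13.1% for Krt17 and 8.54% for Krt15. Krt5 rested there on at most 33 counts in a library and on a luminal level near the floor. Epcam itself was at 4.19 CPM in untreated and 0.430 CPM in E+P GFP+ stroma. Krt19 was at 12.1, 20.2, 12.6 and 11.5 CPM in the untreated and at 2.27, 3.06 and 3.15 CPM in the E+P libraries of GFP+ stroma.

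**Figure D4:**
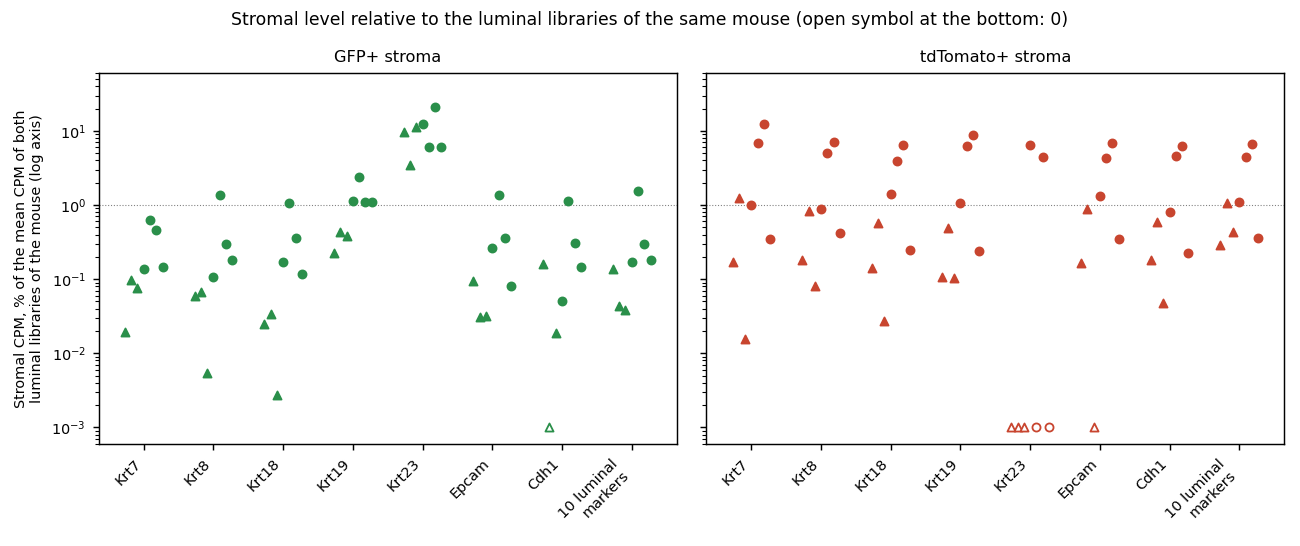
Stromal level of the 5 luminal keratins, of Epcam and Cdh1 and of the sum of 10 luminal epithelial markers, as a percentage of the mean CPM of both luminal libraries of the same mouse, on a log axis (left, GFP+ stroma; right, tdTomato+ stroma; circles, untreated; triangles, E+P; open symbols at the bottom, 0 counts). In GFP+ stroma Krt23 lies between 3.43% and 20.8%, above every other gene shown in each mouse, and in tdTomato+ stroma it had no count in 5 of 7 libraries.

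Between the stromal subsets Krt23 was the member called, where 42.0% of the 17783 genes tested were called and 20.6% were higher in GFP+ stroma. In tdTomato+ stroma it had 7, 0, 8 and 0 counts in the untreated and no count in any of the 3 E+P libraries. The log2 fold change was 4.81 ± 0.95 (edgeR, adjusted p = 5.17e-04), and Krt23 was higher in GFP+ stroma of 7 of 7 mice. After E+P, with 74 counts against 0, the level was at least 25.9-fold higher in GFP+ stroma (floor of 3 counts over the group). The fitted value depends on the prior count where a group is at 0.

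Krt7 (-3.34 ± 0.99), Krt8 (-2.97 ± 0.89), Krt18 (-3.22 ± 0.97), Krt14 (-2.82 ± 0.91) and Krt17 (-2.20 ± 0.80) were lower in GFP+ than in tdTomato+ stroma with adjusted p between 0.0142 and 0.0283, and so were not called at 0.01. With the mouse as a block Krt7 (-2.83, adjusted p = 0.00367), Krt8 (-2.84, 0.00153) and Krt18 (-3.07, 4.33e-04) passed, which made 4 of the 7 members tested. Without untreated mice 2 and 3, which was tried once their values were known, Krt8 was at -2.66 (adjusted p = 0.0103), Krt18 at -3.07 (0.0174) and Krt23, still called, at 4.61 (0.00555). Leaving out 1 mouse added calls in 4 cases: Krt17 without E+P mouse 3 (-2.40, adjusted p = 0.00965), Krt14 without untreated mouse 1 (-3.05, 0.00725), Krt8 without untreated mouse 2 (-3.46, 0.00884), and Krt7 (-3.41, 0.00974) and Krt18 (-3.27, 0.00919) without untreated mouse 4. Krt19 did not differ beyond its error (-0.48 ± 0.67, adjusted p = 0.575). Krt5 and Krt15 did not pass the filter on low counts in the stroma and were not tested there. Krt5 had at most 33 counts in a stromal library and none in 7 of the 14, and Krt15 at most 18 counts and none in 5.

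No member was called for E+P in either stromal subset or in their interaction, where 0.231%, 0.124% and 0.045% of all genes were called. In GFP+ stroma 3 of 7 members had an unadjusted p under 0.05, as had 1429 of the 17783 genes tested. DESeq2 called 1 member there and limma-voom 0. In tdTomato+ stroma 5 of 7 members had an unadjusted p under 0.05, as had 2780 of the genes tested. DESeq2 again called 1 member and limma-voom 0. In the interaction 1 of 7 members had such a p, as had 1858 of the genes tested, with no member called by either tool. The fitted differences were wide, such as -4.86 ± 1.59 for Krt18 (adjusted p = 0.321) and -2.29 ± 0.98 for Krt19 (adjusted p = 0.558) in GFP+ stroma. Krt18 stood at 0.406, 0.528 and 0.0492 CPM in GFP+ stroma after E+P, below all 4 untreated libraries, and the summed luminal epithelial markers at 1.378 to 4.382 CPM after E+P and 5.525 to 45.56 CPM untreated. The part of luminal cells in the stromal sort in this difference was not tested.

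The remaining 45 keratin genes of the table were mostly silent. No count was found for 2 of them, and 15 reached a mean of 1 CPM in some group. Of the 13 tested in luminal cells, 6 were lower in GFP+ cells and none higher, and 1 rose with E+P in tdTomato+ cells. Among all genes tested, 19.0% were lower in GFP+ luminal cells and 7.63% rose with E+P in tdTomato+ ones. Krt6a, an inducible keratin of stressed epithelia, had the highest group mean, 67.3 CPM in tdTomato+ E+P luminal cells against 9.30 CPM untreated, but was not called (2.89 ± 1.09, adjusted p = 0.0697). The 1 that rose was Krt16, its usual partner, from 0.958 to 4.50 CPM (2.25 ± 0.51, adjusted p = 0.00514). Krt78 (-2.97 ± 0.59, adjusted p = 0.00121) and Krt4 (-2.13 ± 0.40, adjusted p = 6.12e-04), keratins of stratified epithelia, were lower in GFP+ luminal cells. Krt80 was at 46.2 CPM in GFP+ and 16.3 CPM in tdTomato+ untreated luminal cells and was not called (0.74 ± 0.23, adjusted p = 0.0165). In the stroma 3 of 6 tested were higher in GFP+ cells, where 20.6% of all genes were higher. They were Krt36 (10.9 against 0.975 CPM untreated) and, outside the rule for naming and with their values known, Krt20 (3.38 against 0.0646 CPM) and Krt10 (2.29 against 1.28 CPM).

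Some of these counts cannot be assigned with certainty. Of the distinct 75-base stretches of Krt5, 7.77% also occur in other genes, most often Krt6a, and of those of Krt14 5.71% occur in Krt16. Krt7 shared 0.0563% with another gene and Krt15, Krt17, Krt18, Krt19 and Krt23 shared none. Krt5 also overlaps the microRNA gene Gm44323 on the opposite strand by 129 bases. The library kit keeps the strand, but the strand setting of the counting is not given in the sources used here. Of the 8 epidermal markers, Sbsn stood at 21.4, 16.1, 11.3 and 19.0 CPM in untreated and E+P GFP+ and untreated and E+P tdTomato+ luminal cells, which was most of the sum of the list, and Krt10 at between 0.947 and 1.82 CPM. Krt1 was at most at 1.13 CPM, and Krt2, Lor, Flg and Krtdap were each at 0 in at least 1 luminal group.

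The desmosome and hemidesmosome genes, to which keratin filaments attach, were followed as a list of 20, of which 19 were in the table. In stroma against luminal cells 14 of the 18 tested were lower and 3 higher, where 30.5% of all genes were lower and 63.5% differed. The median was -4.38 on the log2 scale against 0.0229 over all genes. Between the luminal subsets 7 of 17 were lower in GFP+ cells and 4 higher, where 19.0% of all genes were lower and 15.7% higher. The median was -0.34 against 0.00149. The plakins Plec (1177 against 2531 CPM untreated) and Dst (1558 against 2870 CPM) and the desmosomal anchor of keratin, Dsp (397 against 692 CPM), were lower in GFP+ cells, with log2 fold changes of -1.22 ± 0.17, -1.15 ± 0.07 and -1.48 ± 0.16 (adjusted p = 5.78e-05, 3.55e-07 and 9.76e-06). With E+P 3 fell in GFP+ cells, among them Dsp (397 to 167 CPM, -1.26 ± 0.23, adjusted p = 0.00335) and Dst (1558 to 496 CPM), the direction seen for Krt7 in the same libraries. Among all genes 2.78% fell with E+P in GFP+ cells. In tdTomato+ cells 3 of the list fell, Dst again among them, and 1 rose, where 14.1% of all genes were called and 7.63% rose. Dsp stood there at 692 CPM untreated and 721 CPM after E+P, and the difference of both Dsp responses was not called (-1.34 ± 0.31, adjusted p = 0.0219). Perp, a tetraspan protein of desmosomes, was the 1 that rose, from 61.0 to 258.7 CPM, and the only gene of the list called in the interaction (-1.63 ± 0.24, adjusted p = 0.00161). Perp is outside the rule for naming and was named with its values known. Ppl, another plakin, was the 1 of the leading genes that was higher in GFP+ cells (411 against 219 CPM untreated). In the stroma 10 of 18 were lower in GFP+ cells and 1 higher, where 42.0% of all genes differed and 20.6% were higher.

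Of the 13 other intermediate filament genes, 10 were tested between lineages, and 5 were higher and 2 lower in stroma (median 1.79 on the log2 scale). Among all genes tested there, 63.5% differed and 30.5% were lower. Vimentin (Vim), the filament of mesenchymal cells, stood at 2183 CPM in untreated GFP+ stroma and at 9.10 CPM in untreated GFP+ luminal cells, and desmin (Des), that of muscle, at 573 CPM in untreated tdTomato+ stroma and 4.62 CPM in untreated GFP+ stroma. Vim was higher in GFP+ than in tdTomato+ luminal cells, from a low level (9.10 and 13.8 against 3.77 and 2.58 CPM, 1.85 ± 0.48, adjusted p = 0.00663). Synemin (Synm) rose with E+P in tdTomato+ luminal cells, from 2.87 to 31.8 CPM (3.53 ± 0.58, adjusted p = 9.03e-04). The nuclear lamin Lmna was at 596 CPM in the GFP+ and 539 CPM in the tdTomato+ luminal cells of untreated mice and did not differ between them beyond its error (0.07 ± 0.09, adjusted p = 0.535).

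The genes whose levels followed the keratins most closely were read from 11383 non-keratin genes of at least 10 CPM in some group, by Pearson's r of log2 CPM. Over the 28 libraries, which differ above all by lineage, the nearest to Krt18 were Epcam (0.991), Cdh1 (0.988) and Macc1 (0.988). Over the 14 luminal libraries alone they were Lgals3 (0.944), Zc3h3 (0.931) and Fbxo4 (0.925). For Krt14, whose counts were low, they were Nsd2 (0.857), Wdr59 (0.854) and Hist1h2ab (0.845) over 28 libraries and Chmp7 (0.914), Prpf3 (0.898) and Ctnnb1 (0.893) over the 14 luminal ones. These are descriptions over libraries that share mice and sorts.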

How the data were processed

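RNA of the 28 sorted fractions was made into libraries with a stranded pico-input total RNA kit and sequenced on an Illumina NextSeq instrument. The authors deposited 1 table of raw read counts per gene for all 28 libraries, and per the submitters' processing notes the reads were aligned with STAR 2.5.2a to GRCm38.p5. How strand was treated in counting is not given in the sources used here. Per the paper, RNA integrity numbers spanned their whole scale, from the lowest to the highest, with no value per library. Fragmentation time was changed to suit RNA of lower quality. How RNA quality bears on the levels given here was not tested. All 28 columns were matched to samples by title. Each title names a mouse, and the 4 fractions of a mouse share its number. Deviations from the group mean correlated at r = 0.157 between the luminal subsets of a mouse (-0.0258 between mice) and at r = 0.0496 between its stromal subsets (-0.0083 between mice).

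The counts were tested with edgeR 4.0.16 (quasi-likelihood, robust, TMM, filterByExpr, R 4.3.3) over all genes of the luminal, the stromal or all libraries, two-sided, with Benjamini-Hochberg adjustment and a threshold of 0.01 on adjusted p, the threshold of the study. Errors of log2 fold changes are standard errors. All comparisons within a lineage share libraries. Exact permutation tests on log2 CPM (prior count 2) were run over mice for single members, and of 81 such tests 30 had p under 0.05 and 0 after adjustment. With 3 against 4 mice the smallest p is 0.0286. The fit was tested on simulated data. DESeq2 1.42.0, limma-voom 3.58.1, other scalings, no filter, the mouse as a block, other samples in the fit and leaving out each mouse were alternatives.

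All members were named. Other keratins were named if called and at 1 CPM or more, up to 6 by level, and list genes up to 4 by level. The members, lists and tests were chosen with earlier results of these data known. CPM per kb used the length of the principal transcript in GENCODE M21, which held 50376 of the 50600 gene identifiers. Of 117 list symbols 116 were found. Values of 1 list gene are not reported here.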

Additional observations from a re-analysis of the deposited data

Results flagged for a closer look

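In 36 groups of 4 untreated libraries, 1 for each keratin and fraction, the gap between an extreme library and its nearest neighbour was compared with the whole range of the group, and 2 passed Dixon's 95% critical value. Chance alone flags about 1 in 20 such groups. Both were in untreated GFP+ stroma and both were the library of mouse 2, with Krt8 at 21.54 CPM, where the other libraries held between 2.12 and 5.30 CPM, and Krt19 at 20.22 CPM, where the others held between 11.5 and 12.6 CPM. The summed luminal epithelial markers were also highest in that library, at 45.56 CPM. The part of luminal cells in these values was not tested.

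The E+P effect on Krt7 differed between the GFP+ and tdTomato+ luminal cells by -1.25 on the log2 scale in the interaction test of edgeR (adjusted p = 0.00434), and the call did not hold when any 1 of 5 of the 7 mice was left out.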

How the results depend on the processing

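Of the log2 fold changes of members recomputed under alternatives, 875 kept their direction and their side of the threshold, 23 lost the call, 41 gained it and 41 changed sign. The cause of a change was not tested. Low counts limit Krt5, Krt14 and all basal members in stroma.

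Counts of genes called moved as follows. For E+P in GFP+ luminal cells 985 became 2035 with DESeq2, 560 with only the groups compared and 2475 at an adjusted p under 0.05. In tdTomato+ luminal cells 2327 became 3558 with DESeq2 and 4444 at 0.05. In the luminal interaction 376 became 1014 and 1089. In GFP+ stroma 41 became 459 with no filter on low counts, 192 with DESeq2, 100 with limma-voom, 187 with only the groups compared and 126 at 0.05. In tdTomato+ stroma 22 became 34 with library size alone, 840 with no filter, 384 with DESeq2, 8 with limma-voom, 0 with only the groups compared, 143 at 0.05 and 82 without untreated mice 2 and 3. In the stromal interaction 8 became 506 with no filter, about 1.1e+02 with DESeq2, 4 with limma-voom, 43 at 0.05 and 13 with the mouse as a replicate block.

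Members called moved too. Between the luminal subsets 6 became 8 with DESeq2 and at 0.05, 7 with limma-voom and 5 with library size alone, and leaving out 1 mouse gave between 4 and 6. For E+P in GFP+ luminal cells 1 became 2 with library size alone, no filter, DESeq2, limma-voom and at 0.05, the added member in each being Krt18. In tdTomato+ luminal cells 1 became 0 with no filter, limma-voom and only the groups compared, and 2 with DESeq2 and at 0.05. In the luminal interaction 1 became 0 with library size alone. Between the stromal subsets 1 became 6 with no filter, 5 with DESeq2, 6 at 0.05 and 4 with the replicate block. The block changed no other call of a member, and it could not be fitted for E+P within a subset, where each mouse has 1 library. For E+P in GFP+ stroma 0 became 4 with no filter, 1 with DESeq2 and 1 with only the groups compared. In tdTomato+ stroma 0 became 4 with no filter and 1 with DESeq2, and in the stromal interaction 0 became 1 with no filter.

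Leaving out 1 mouse gave between 169 and 962 genes and 1 and 2 members for E+P in GFP+ luminal cells, between 1140 and 2144 genes and 0 and 1 members in tdTomato+ luminal cells, and between 33 and 314 genes and 0 and 1 members in their interaction. It gave between 16 and 46 genes for E+P in GFP+ stroma, between 1 and 85 in tdTomato+ stroma and between 1 and 13 in their interaction, and between 1 and 3 members between the stromal subsets.

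Signs that changed were all of differences that were not called. With library size alone, E+P left Krt15 at -0.0399 in GFP+ and Krt8 at -0.0157 and Krt14 at -0.0559 in tdTomato+ luminal cells. With no filter Krt5 was at 0.0089 for E+P in GFP+ luminal cells. With limma-voom Krt5 was at 0.858 and Krt15 at -0.0618 in that comparison, Krt19 at 0.0700 between the stromal subsets, Krt23 at -0.0550 for E+P in GFP+ stroma and Krt14 at 1.15 in tdTomato+ stroma. In the luminal interaction Krt19 was at -0.0039 with DESeq2 size factors and -0.0038 with DESeq2. Between the stromal subsets Krt19 was at 0.0453 with the replicate block and 0.703 without untreated mice 2 and 3, and without these mice Krt7 and Krt19 were at -0.436 and -0.120 in the stromal interaction.

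Leaving out 1 mouse turned the sign of these values, given by their lowest and highest: Krt5 between the luminal subsets (-0.0510 to 1.04); for E+P in GFP+ luminal cells Krt15 (-0.555 to 0.474) and Krt5 (-0.443 to 0.184), and in tdTomato+ luminal cells Krt14 (-0.176 to 0.567) and Krt23 (-0.538 to 0.178). In the luminal interaction these were Krt19 (-0.209 to 0.155) and Krt5 (-0.0275 to 2.12). In GFP+ stroma they were Krt23 (-0.253 to 0.480) and Krt17 (-0.337 to 0.644), in tdTomato+ stroma Krt14 (-0.796 to 0.900), and in the stromal interaction Krt8 (-1.07 to 0.778) and Krt18 (-1.61 to 0.0012).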
